A study of Mus musculus with 15 samples.

Results

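The 36 genes described here encode the enzymes, transporters and regulators of glycolysis, of lactate and pyruvate handling, of glycogen metabolism and of the pentose phosphate pathway. They were found by gene symbol in the deposited count tables, where each of the 36 symbols matched 1 of 26263 named genes. RNA was sequenced from 15 libraries of neural stem and progenitor cells that had been taken from the dorsal telencephalon of mouse embryos at E12.5. The cells were grown as free-floating neurospheres under proliferation conditions, with insulin at 25 µg/ml, EGF at 20 ng/ml and FGF at 10 ng/ml. The study asked how loss and gain of Kat6b, a histone acetyltransferase gene, alter RNA levels in these cells. On the C57BL/6 background there were 3 wild-type libraries (WT_B6, replicates 1, 2 and 4) and 4 Kat6b-/- libraries (KO_B6). On a mixed FVBxBALB/c background, used because the transgene was not viable on an inbred one, there were 2 wild-type libraries (WT_FvB) and 6 libraries of Tg(Kat6b) cells (Tg_FvB), which overexpress Kat6b mRNA. Neither the structure of the knockout allele nor the promoter of the transgene is given in the sources used here. No further agent was given to any group.

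Some labels disagree with each other. The titles of all 6 Tg_FvB samples say knockout, whereas their genotype field says Kat6b Tg, and the genotype field was followed. In the tables of Tg_FvB replicates 5 and 6 the header of the count column names them wild types 3 and 4 of the FvB background. Results that rest on these libraries are therefore given with and without them. Kat6b itself was at 84.2 ± 0.778 CPM (read counts scaled to library depth; SD, n = 3) in WT_B6, 63.3 ± 2.21 (n = 4) in KO_B6, 53.1 ± 1.80 (n = 2) in WT_FvB and 242.8 ± 54.2 (n = 6) in Tg_FvB. In the libraries labelled Tg_FvB 5 and 6 it was at 139.6 and 289 CPM, above both WT_FvB libraries. In the libraries labelled KO_B6 it was lower than in WT_B6 but not called (log2 fold change -0.41 ± 0.17 SE, edgeR adjusted p = 0.0571), and a count over the whole gene does not show whether a deleted part is missing. The labels give WT_B6 replicate 1 and WT_FvB replicate 2 one and the same litter number and embryo number, although their backgrounds differ.

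The depth of a library, as its total count over named genes, was between 12336303 and 62819028, and all 4 KO_B6 libraries were deeper than every WT_B6 library. Several libraries were nearly copies of each other. The biological coefficient of variation between pairs was 0.0172 to 0.0358 among the WT_B6 libraries, although these carry 3 litter numbers. It was 0.0268 between KO_B6 2 and 3, 0.0316 between the WT_FvB libraries and 0.0338 to 0.0503 among Tg_FvB 1, 2 and 3, against 0.115 to 0.275 for the other pairs of a group. The near-copies still differed by 2.10 to 11.4 times the sampling noise of their counts, so each library was counted as 1 sample. Nothing in the labels says that libraries with these small differences came from separate cultures, and the p-values then measure only the spread between these libraries, which may be technical. With near-copies summed to 1 sample, edgeR called 0 of the 36 genes in any comparison, with 5 at an unadjusted p under 0.05 on loss of Kat6b and 10 on gain, while every gene called from the 15 libraries kept its direction. Summing leaves 1 sample in each wild-type group. Counts of genes at an unadjusted p, here and below, are given without the share of all genes at that threshold. A list of 8 neural stem cell markers summed to 4790 to 7680 CPM over the libraries. Its most abundant members, Fabp7 and Vim, were at group means of 2198 to 3316 and 1311 to 1802 CPM. Nes was at group means of 691 to 1146 and Sox2 of 426 to 694 CPM. The dorsal telencephalon marker Emx1 was at most at 0.128 CPM in any library. Oligodendrocyte lineage markers summed to 2303 to 3532 CPM, neuron markers to 872 to 1153 CPM and astrocyte markers to 581 to 2159 CPM. Markers of microglia summed to at most 0.456 CPM, of endothelium to at most 3.96 CPM and of mesenchyme to at most 4.62 CPM.

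Glycolysis splits glucose into pyruvate, which is either reduced to lactate and exported or oxidised in mitochondria after pyruvate dehydrogenase has converted it to acetyl-CoA. Glucose 6-phosphate can instead be stored as glycogen, or enter the pentose phosphate pathway, which supplies NADPH and ribose for nucleotides. Proliferating neural progenitors are known for a strong use of glycolysis, and many genes of the pathway are known targets of hypoxia-inducible factors and of MYC. Many steps have paralogs with different kinetics or regulation, so levels were compared by step and by paralog.

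In KO_B6, 10 of the 36 genes rose, namely Slc2a1, Hk2, Pfkfb3, Aldoa, Pgk1, Pgam1, Pkm, Ldha, Slc16a1 and Pgd, and 6 fell, namely Pfkm, Ldhb, Pdk2, Ppp1r3c, Pygl and Pygb. In Tg_FvB 0 rose and 11 fell, namely Slc2a1, Slc2a3, Gpi1, Pfkfb3, Tpi1, Pgk1, Pgam1, Ldha, Gys1, Gbe1 and Ppp1r3c. The genes Slc2a1, Pfkfb3, Pgk1, Pgam1 and Ldha were in both the first and the third of these lists, and Ppp1r3c fell in both comparisons. With 0 rises on gain in edgeR, 1 gene was higher at an unadjusted p under 0.05, and DESeq2 called 0 as higher and 18 as lower. All 36 genes passed the filter on low counts and were tested, with a call at a Benjamini-Hochberg adjusted p under 0.05 over 15261 genes in edgeR's quasi-likelihood F-test.

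These counts stand against the background of all genes. The 36 genes were chosen with earlier results of these data known, so a share above the background is a description and no test. In the knockout comparison 45.8% of all genes tested were called, 24.8% as higher and 20.9% as lower, and 44.4% of the 36 genes were called, so their share was near the background. In the transgene comparison 1.84% of all genes were called, 0.681% as higher and 1.16% as lower, against 30.6% of the 36 genes. The median log2 fold change of the 36 genes was 0.28 in the knockout comparison (0.02 over all genes) and -0.46 in the transgene comparison (0.01 over all genes). No library value overlapped between the groups for 13 genes higher and 8 lower in KO_B6, where the share of all genes was 29.3% and 27.0%, 56.3% together. In Tg_FvB 22 of the 36 genes were lower in every library than in both wild types, where the share of all genes was 8.01%, and 0 were higher in every library, where it was 7.97%.

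The effect of loss and the effect of gain share no library, and their difference was tested in the same model. It was called for 26 of the 36 genes, 22 of them with a more positive change on loss than on gain and 4 (Ldhb, Pdk2, Pdha1 and Pygb) with a more negative one. Over all genes the difference was called for 37.3%, 19.6% in the first direction and 17.8% in the second.

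**Figure D1:**
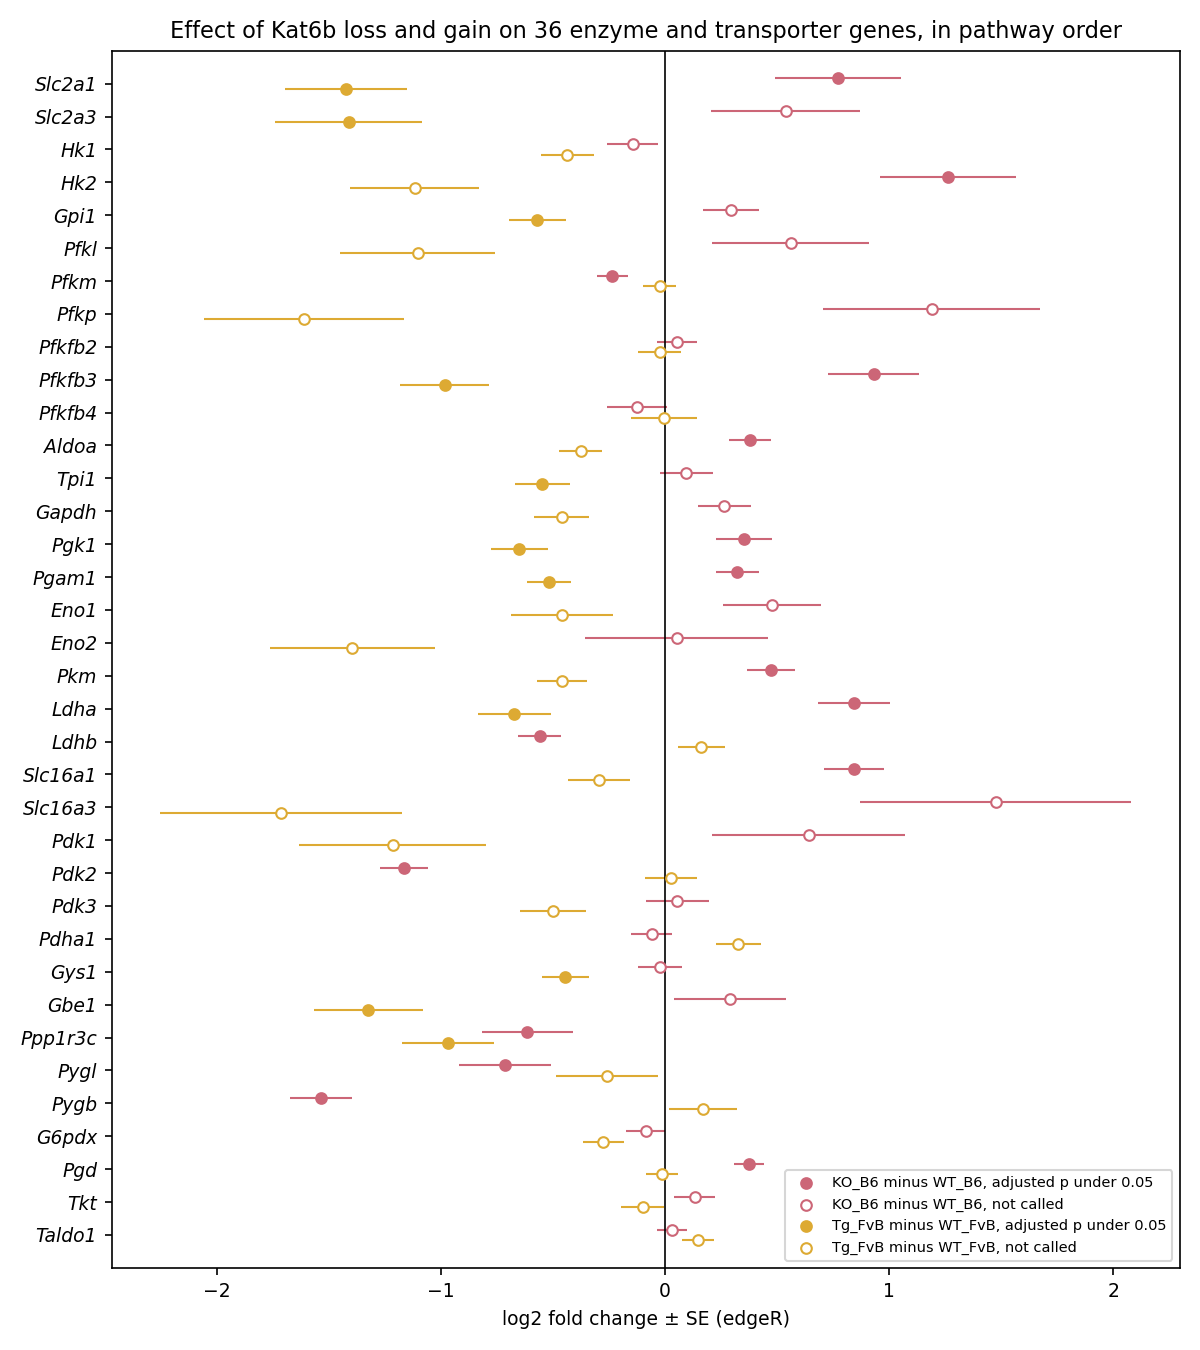
Log2 fold changes of the 36 genes in pathway order, for KO_B6 against WT_B6 and for Tg_FvB against WT_FvB, with bars for the standard error of the fit and filled points for an edgeR adjusted p under 0.05. The values ran from -1.54 (Pygb) to 1.48 (Slc16a3) on loss and from -1.71 (Slc16a3) to 0.33 (Pdha1) on gain.

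The calls on gain depended on single libraries more than those on loss. In edgeR, leaving out WT_FvB replicate 1, WT_FvB replicate 2 or Tg_FvB replicate 1 left 0 of the 11 calls, with 24, 22 and 24 of the 36 genes at an unadjusted p under 0.05. The share of all genes at that unadjusted p is not given, so these counts have no background to stand against. Leaving out either WT_FvB library leaves 1 in its group. Without Tg_FvB replicate 2 or 3, 2 and 4 of the 11 calls remained. Without Tg_FvB replicate 4 all 11 remained and 24 genes were called lower, and without replicate 5, 17 were. Without Tg_FvB replicates 5 and 6 together all 11 remained and 16 were called lower. The calls over all genes moved too, from 281 with the 15 libraries to 59, 62 and 88 without Tg_FvB replicate 1, 2 or 3. They numbered 1763 without replicate 4, 606 without replicate 5 and 638 without replicates 5 and 6. All 11 genes kept a negative fold change under each of these settings. Tg_FvB replicate 4 was the highest of its group for 24 of the 31 genes with a negative fold change, and replicate 6 the lowest for 24. In the knockout comparison 13 to 16 of the 16 calls remained when any 1 library was left out. The WT_B6 libraries are near-copies of each other, as are KO_B6 2 and 3. Leaving 1 of these out kept a near-copy of it in the fit and is a weak check. KO_B6 replicate 4 was the lowest of its group for 19 of the 25 genes with a positive fold change, and without it all 16 calls remained.

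Litter is the only batch that the labels give. Within litter 843 (WT_B6 2 against KO_B6 1 and 2) and within litter 929 (WT_B6 4 against KO_B6 3 and 4) all 16 genes called on loss had the direction of the whole comparison. The median log2 ratio of the 36 genes was 0.33 within the first litter and 0.08 within the second. Within litter 844 (both WT_FvB libraries against Tg_FvB 1 and 2) all 11 genes called on gain had the direction of the whole comparison. The median of the 36 there was -0.58. Of all 36 genes, 34, 31 and 35 had that direction within litters 843, 929 and 844. The calls and directions come from these same libraries, so the agreement was largely fixed in advance and is no separate support. WT_B6 2 and 4, and KO_B6 2 and 3, are near-copies across litters 843 and 929. With litter as a term in the model, 12 of the 16 calls on loss and 0 of the 11 on gain remained (lowest edgeR adjusted p of those 11, 0.123). On gain 10 of all genes were then called. There 25 of the 36 genes had an unadjusted p under 0.05, again without the share of all genes.

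The glucose transporter gene Slc2a1 (GLUT1, the main carrier for basal glucose uptake; chromosome 4, 119108745 to 119137330 on GRCm38) was at 21.97, 21.1 and 21.0 CPM in WT_B6 and at 44.6, 40.7, 36.6 and 24.2 CPM in KO_B6. Every KO_B6 library was above every WT_B6 library, the lowest of them, replicate 4, by little. Slc2a1 was at 106 and 111 CPM in WT_FvB, and in Tg_FvB it had a lowest value of 21.9, a median of 36.8 and a highest value of 64.9 CPM, so the groups did not overlap there either. It rose 1.71-fold on loss (log2 0.77 ± 0.28, adjusted p = 0.0362) and was 2.66-fold lower on gain (log2 -1.42 ± 0.27, adjusted p = 0.0243). Without Tg_FvB 5 and 6 the log2 fold change was -1.38, and the changes on loss and gain differed by 2.20 ± 0.40 on the log2 scale (adjusted p = 0.000993).

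Slc2a3, which encodes the high-affinity transporter GLUT3 of neurons, fell on gain from 82.3 and 75.6 CPM in WT_FvB to between 15.3 and 53.5 CPM (log2 -1.41 ± 0.33, adjusted p = 0.0423). On loss it was at 39.6, 34.2, 33.7 and 18.2 CPM against 21.2 to 21.9 CPM, with replicate 4 below the wild types, and was not called (log2 0.54 ± 0.33, adjusted p = 0.203).

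Hexokinases phosphorylate glucose and so trap it in the cell. Hk1, the constitutive form, had 139 ± 4.66 CPM (SD, n = 3) in WT_B6 and 126 ± 4.58 (n = 4) in KO_B6 and was called in neither comparison. Hk2, the inducible form (chromosome 6, 82725025 to 82774454), rose from 16.5, 14.4 and 14.5 CPM to 39.4, 39.7, 37.9 and 27.9 CPM in KO_B6. All 4 KO_B6 values were above all WT_B6 values, and the change was 2.39-fold (log2 1.26 ± 0.30, adjusted p = 0.00337). In WT_FvB Hk2 was at 76.1 and 77.1 CPM, and in Tg_FvB at 16.7 to 63.4 CPM with a median of 33.0. The groups did not overlap, but the change on gain was not called (log2 -1.12 ± 0.29, adjusted p = 0.0637). Without Tg_FvB 5 and 6 the adjusted p was 0.0341.

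Gpi1, glucose phosphate isomerase, fell on gain from 746 and 739 CPM to 391 to 644 CPM (log2 -0.57 ± 0.13, adjusted p = 0.0396). Its value on loss was 0.30 ± 0.12 on the log2 scale (adjusted p = 0.0646), with all KO_B6 libraries at 345 CPM or higher and all WT_B6 libraries at 329 CPM or lower.

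Phosphofructokinase commits sugar to glycolysis, and its subunits come from 3 genes. Pfkm, the muscle-type subunit, was the most abundant per kilobase in WT_B6. It fell on loss from 148, 153 and 155 CPM to 136, 125, 116 and 140.0 CPM (log2 -0.23 ± 0.07, adjusted p = 0.0109). In Tg_FvB the value was 157 ± 8.96 CPM (n = 6) against 160.2 ± 1.74 (n = 2) and was not called (adjusted p = 0.890). Pfkl and Pfkp, the liver-type and platelet-type subunits, were not called in either comparison, but their libraries were widely spread. Pfkp was at 12.6 to 14.3 CPM in WT_B6 and at 18.3, 41.2, 37.8 and 24.7 CPM in KO_B6. It was at 132 CPM in both WT_FvB libraries and ran from 11.8 to 81.0 CPM in Tg_FvB. Its difference of effects was called (2.80 ± 0.67, adjusted p = 0.00488), as was that of Pfkl (1.66 ± 0.50, adjusted p = 0.0167).

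The PFKFB enzymes set the level of fructose 2,6-bisphosphate, an activator of phosphofructokinase. Pfkfb3, the form with the highest kinase activity (chromosome 2, 11471430 to 11554071), was at 28.7, 27.0 and 24.4 CPM in WT_B6 and at 52.8, 53.9, 53.0 and 43.7 CPM in KO_B6. It was at 134 and 127 CPM in WT_FvB, and in Tg_FvB at 37.2 (lowest), 66.8 (median) and 93.9 CPM (highest). The groups did not overlap on either background. Pfkfb3 rose 1.90-fold on loss (log2 0.93 ± 0.20, adjusted p = 0.00189) and was 1.97-fold lower on gain (log2 -0.98 ± 0.20, adjusted p = 0.0283; -0.85 without Tg_FvB 5 and 6). Pfkfb2 and Pfkfb4, its paralogs, were called in neither comparison, with log2 fold changes between -0.12 and 0.06.

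The middle of the pathway, from aldolase to phosphoglycerate mutase, had 3 rises on loss and 3 falls on gain. Aldoa, the ubiquitous aldolase, rose on loss from 442 ± 21.0 CPM (n = 3) to 576 ± 19.6 (n = 4; log2 0.38 ± 0.09, adjusted p = 0.00393). On gain it was at 653 ± 83.2 CPM (n = 6) against 848 ± 13.4 (n = 2; adjusted p = 0.0627). Tpi1, triose phosphate isomerase, fell on gain from 620.2 and 625 CPM to 357 to 532 CPM (log2 -0.55 ± 0.12, adjusted p = 0.0386), and on loss was at 0.10 ± 0.12 (adjusted p = 0.531). Gapdh was called in neither comparison.

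Pgk1 (phosphoglycerate kinase, the first ATP-yielding step; chromosome X, 106187100 to 106203699) was at 69.8, 70.5 and 68.9 CPM in WT_B6 and at 97.2, 88.7, 94.7 and 75.8 CPM in KO_B6. In WT_FvB it was at 130.0 and 144 CPM, and in Tg_FvB at 70.2 to 108 CPM with a median of 88.4. None of these groups overlapped with its wild type. It rose 1.28-fold on loss (log2 0.35 ± 0.12, adjusted p = 0.0301) and was 1.57-fold lower on gain (log2 -0.65 ± 0.13, adjusted p = 0.0263).

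Pgam1 (phosphoglycerate mutase; chromosome 19, 41911871 to 41918665) was at 65.6, 72.7 and 69.9 CPM in WT_B6 and at 92.3, 89.7, 88.2 and 77.0 CPM in KO_B6. It was at 167 and 162 CPM in WT_FvB and at 97.4 to 131 CPM in Tg_FvB. Again no group overlapped with its wild type. The changes were 0.32 ± 0.10 on loss (adjusted p = 0.0126) and -0.52 ± 0.10 on gain (adjusted p = 0.0243) on the log2 scale.

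**Figure D2:**
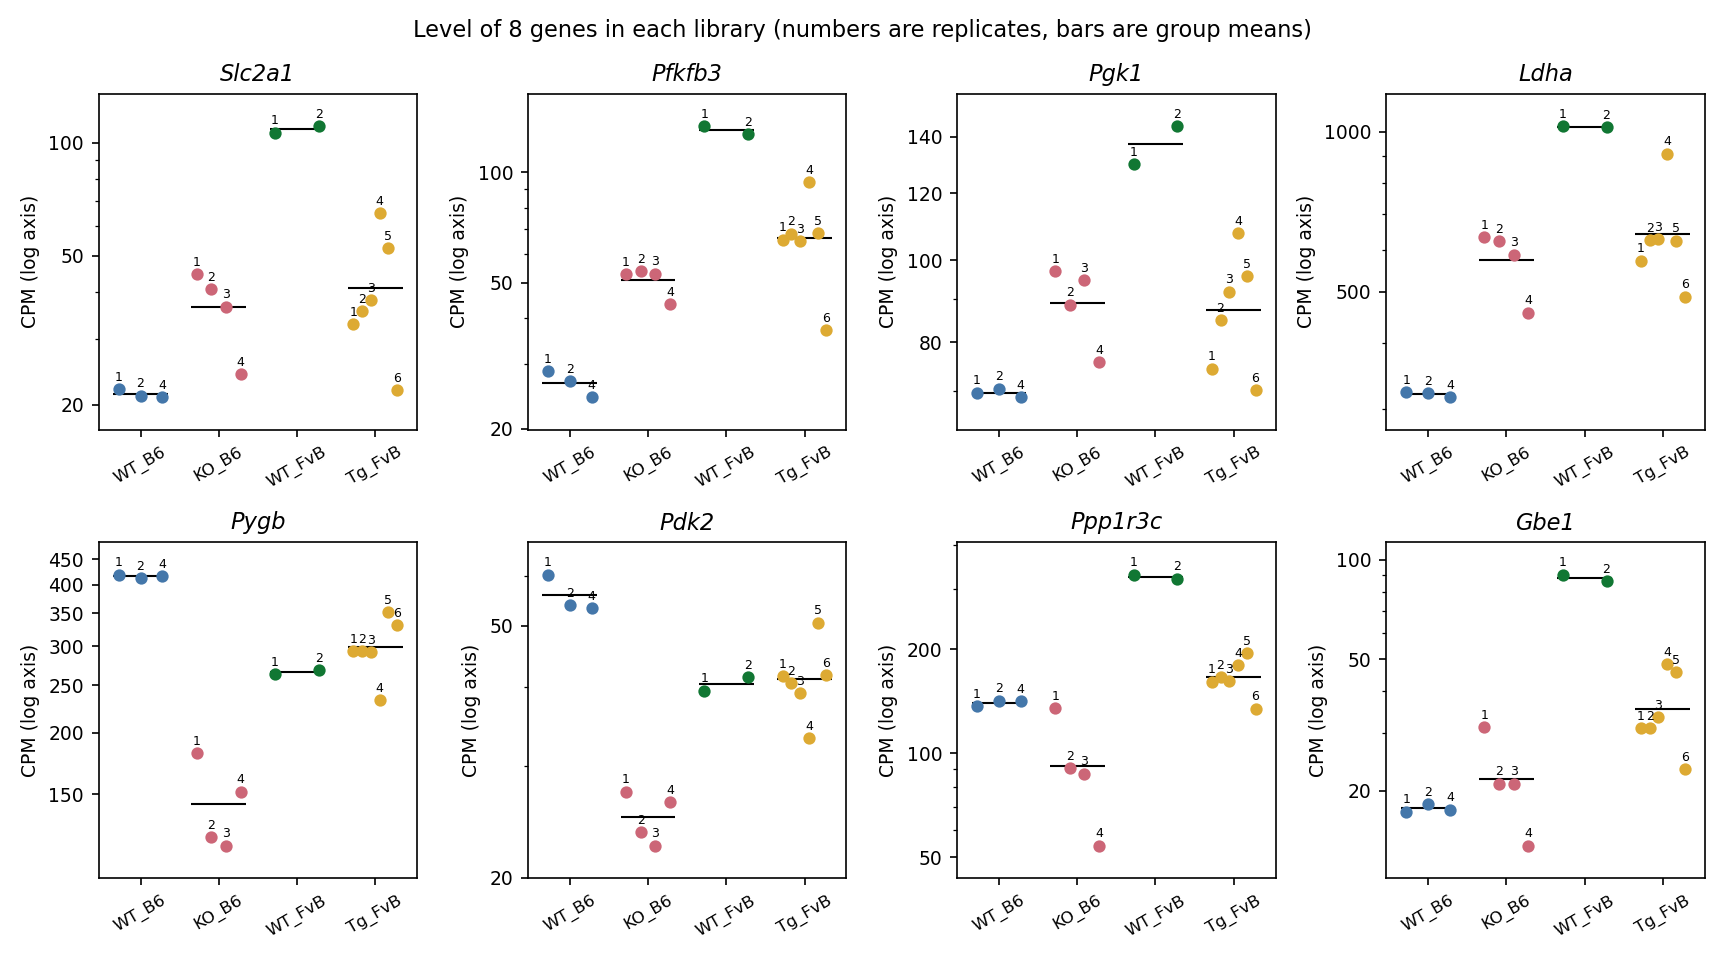
CPM of 8 genes on log axes in each of the 15 libraries by group (points, numbered by replicate), with a bar for the group mean. Slc2a1, Pfkfb3, Pgk1 and Ldha were higher in every KO_B6 library than in every WT_B6 library and lower in every Tg_FvB library than in both WT_FvB libraries, while Pygb and Pdk2 were lower in every KO_B6 library and overlapped between Tg_FvB and WT_FvB.

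Pkm encodes pyruvate kinase in its 2 splice forms, PKM1 and PKM2, which a count per gene cannot separate. By the deposited counts it was the most abundant of the 36 genes per kilobase in all 4 groups, where counts of genes with near-identical copies, such as Gapdh, are uncertain. It rose on loss from 897, 861 and 859 CPM to 1190.2, 1323, 1275 and 1054 CPM (log2 0.47 ± 0.11, adjusted p = 0.00263). Tg_FvB was at 1084 to 1613 CPM against 1772 and 1774 CPM, without overlap and just outside the threshold (log2 -0.46 ± 0.11, adjusted p = 0.0520). Without Tg_FvB 5 and 6 the adjusted p was 0.0457.

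Lactate dehydrogenase is a tetramer of A subunits, which favour lactate formation, and B subunits, which favour its oxidation. Ldha (chromosome 7, 46842274 to 46855627) was at 323, 322 and 316 CPM in WT_B6 and at 632, 622, 587 and 457 CPM in KO_B6. It was at 1025 and 1018 CPM in WT_FvB, and in Tg_FvB its lowest value was 489, its median 625 and its highest 909 CPM. The groups did not overlap on either background. Ldha rose 1.79-fold on loss (log2 0.84 ± 0.16, adjusted p = 0.000699) and was 1.59-fold lower on gain (log2 -0.67 ± 0.16, adjusted p = 0.0488).

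Ldhb (chromosome 6, 142490249 to 142507957) went the other way on loss. It was at 181, 176 and 177 CPM in WT_B6 and at 124, 120.0, 115 and 125 CPM in KO_B6, without overlap, a fall of log2 -0.56 ± 0.10 (adjusted p = 0.000301). On gain it was at 133 to 203 CPM against 147 and 146 CPM and was not called (adjusted p = 0.421).

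Monocarboxylate transporters carry lactate across the membrane. Slc16a1 (MCT1) rose on loss from 64.2, 62.2 and 64.3 CPM to 98.4, 120.4, 124 and 113 CPM, without overlap (1.79-fold, log2 0.84 ± 0.13, adjusted p = 0.000173). In Tg_FvB it stood at 96.5 to 161 CPM against 151 and 156 CPM (adjusted p = 0.270). Slc16a3 (MCT4, the low-affinity exporter) had the widest spread. It was at 4.24 to 5.29 CPM in WT_B6 and at 18.6, 15.1, 16.5 and 3.61 CPM in KO_B6, with replicate 4 below the wild types. It was at 53.2 and 53.9 CPM in WT_FvB and at 4.00 to 34.3 CPM in Tg_FvB. Neither change was called (adjusted p = 0.0583 and 0.112), while their difference was (3.19 ± 0.82, adjusted p = 0.00754). Without KO_B6 replicate 4 the change on loss was called (log2 1.80, adjusted p = 0.0141).

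Pyruvate dehydrogenase kinases switch off pyruvate dehydrogenase and so hold pyruvate back from oxidation. Pdk2 (chromosome 11, 95026258 to 95041371) fell on loss from 60.3, 54.0 and 53.4 CPM to 27.3, 23.6, 22.5 and 26.3 CPM, less than any wild-type value (log2 -1.16 ± 0.11, adjusted p = 4.94e-06). On gain it was at 33.2 to 50.6 CPM around the wild types at 39.5 and 41.5 CPM (adjusted p = 0.927). Pdk1, the form most closely tied to the hypoxia response, was at 26.4 to 30.0 CPM in WT_B6 and at 71.2, 45.8, 45.7 and 16.1 CPM in KO_B6. It was at 171 and 170.1 CPM in WT_FvB and at 29.9 to 131 CPM in Tg_FvB. Neither change of Pdk1 was called (adjusted p = 0.239 and 0.142). Pdk3 was at 22.8 ± 3.96 CPM in KO_B6 (n = 4) against 21.9 ± 0.393 in WT_B6 (n = 3), and Pdha1, the catalytic subunit of the dehydrogenase, at 342 ± 12.03 (n = 4) against 357 ± 11.4 (n = 3). Neither was called in either comparison.

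On loss, the phosphorylases, which release glucose 1-phosphate from glycogen, fell. Pygb, the brain form (chromosome 2, 150786796 to 150831748), had the largest called change of the 36 genes. It was at 419, 413 and 415 CPM in WT_B6 and at 182, 123, 118 and 152 CPM in KO_B6, far below every WT_B6 library (log2 -1.54 ± 0.14, adjusted p = 4.39e-06). Tg_FvB stood at 233 to 352 CPM against 263 and 268 CPM and was not called (adjusted p = 0.569). Pygl, the liver form, fell on loss from a low level of 3.55 ± 0.485 CPM (n = 3) to 2.16 ± 0.235 (n = 4; log2 -0.72 ± 0.21, adjusted p = 0.0107). Its changes on loss and gain did not differ past the threshold (adjusted p = 0.265).

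On gain, all 3 members of the synthetic side fell. Gbe1, the glycogen branching enzyme (chromosome 16, 70313949 to 70569720), was at 90.3 and 86.2 CPM in WT_FvB, and in Tg_FvB at 23.2 (lowest), 32.2 (median) and 48.4 CPM (highest). The groups were far apart, and Gbe1 was 2.49-fold lower (log2 -1.32 ± 0.24, adjusted p = 0.0220), the lowest adjusted p of the 36 genes on gain. On loss it was at 31.1, 21.0, 21.0 and 13.7 CPM around the wild types at 17.3 to 18.2 CPM (adjusted p = 0.368). Gys1, glycogen synthase, fell on gain from 160.1 and 165 CPM to 100.2 to 145 CPM (log2 -0.44 ± 0.10, adjusted p = 0.0434).

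Ppp1r3c, which encodes PTG, the subunit that brings a protein phosphatase to glycogen and so favours synthesis, was the gene that fell in both comparisons. It was at 137, 142 and 142 CPM in WT_B6 and at 135, 90.4, 87.3 and 54.0 CPM in KO_B6, with replicate 1 close to the wild types. It was at 329 and 320.2 CPM in WT_FvB and at 135 to 195 CPM in Tg_FvB, with a median of 164. The log2 fold changes were -0.61 ± 0.20 on loss (adjusted p = 0.0219) and -0.97 ± 0.21 on gain (adjusted p = 0.0337), and their difference was not called (adjusted p = 0.368).

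Among the pentose phosphate enzymes Pgd, the second NADPH-yielding dehydrogenase, rose on loss from 116, 115 and 114 CPM to 138, 154, 157 and 148 CPM, without overlap (log2 0.38 ± 0.07, adjusted p = 0.000418). On gain it was at 150.4 ± 11.1 CPM (n = 6) against 152 ± 3.32 (n = 2; adjusted p = 0.942). G6pdx (the entry dehydrogenase), Tkt (transketolase) and Taldo1 (transaldolase) were called in neither comparison, with log2 fold changes between -0.28 and 0.15.

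Summed per kilobase of gene length, so that genes could be added, the trunk from hexokinase to lactate dehydrogenase (16 genes, without the PFKFB regulators) reached 1543 ± 34.7 CPM per kilobase in WT_B6 (n = 3) and 1956 ± 163 in KO_B6 (n = 4), a ratio of 1.27. It reached 3036 ± 15.95 in WT_FvB (n = 2) and 2150 ± 307 in Tg_FvB (n = 6), a ratio of 0.708. The lowest KO_B6 library (replicate 4, at 1720.3) lay above the highest WT_B6 library at 1582, and the highest Tg_FvB library (replicate 4, at 2697) below the lowest WT_FvB library at 3025. Phosphorylases went from 110 ± 0.992 to 38.1 ± 7.78 CPM per kilobase on loss and from 70.3 ± 0.590 to 78.8 ± 10.8 on gain. The pentose phosphate enzymes went from 387 ± 6.10 to 421 ± 25.9 and from 413 ± 1.02 to 406 ± 19.8. These sums are descriptions, with no test, and take the counts of genes with near-identical copies as deposited.

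**Figure D3:**
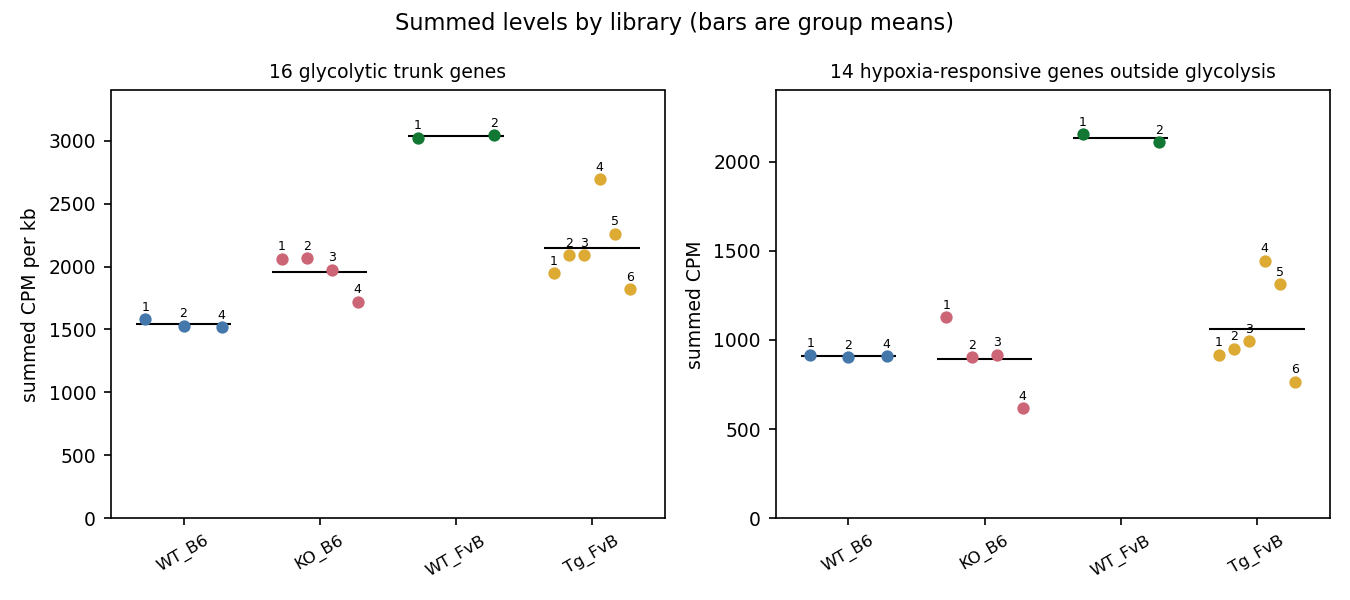
Summed level in each library, by group, of the 16 trunk genes from hexokinase to lactate dehydrogenase (CPM per kilobase) and of 14 hypoxia-responsive genes outside glycolysis (CPM). The trunk ran from 1516 to 1582 in WT_B6, 1720.3 to 2065 in KO_B6, 3025 to 3047 in WT_FvB and 1819.8 to 2697 in Tg_FvB.

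The shares that paralogs held within a step, as a percentage of the step's reads per kilobase, were compared by exact 2-sided permutation tests. None of 30 shares passed after Benjamini-Hochberg adjustment (lowest adjusted p = 0.0824), and the smallest p that the design allows is 0.0286 on loss and 0.0357 on gain. With 0 passing, the counts at an unadjusted exact p under 0.05 were 6 of 15 on loss and 7 of 15 on gain. Ldha held 54.6% ± 0.312 of the lactate dehydrogenase reads per kilobase in WT_B6 (n = 3) and 75.8% ± 3.22 in KO_B6 (n = 4; exact p = 0.0286). In the other pair of groups it held 82.3% ± 0.0332 in WT_FvB (n = 2) and 71.7% ± 6.46 in Tg_FvB (n = 6; exact p = 0.0714). Hk1 held 91.8% of the hexokinase reads per kilobase in WT_B6 and 81.0% in KO_B6, and 76.2% in WT_FvB and 84.1% in Tg_FvB. The share of Pfkfb3 among the bifunctional regulators was 45.9% in WT_B6 and 61.6% in KO_B6, and 76.7% in WT_FvB and 62.0% in Tg_FvB. Pdk1 held 13.5% of the kinase reads per kilobase in WT_B6, 26.6% in KO_B6, 48.1% in WT_FvB and 30.6% in Tg_FvB (exact p = 0.114 on loss and 0.0357 on gain). KO_B6 replicate 4 had Pdk1 at 13.2% and Pfkm at 72.2%, inside the WT_B6 values of 12.01% to 14.5% and 72.1% to 73.6%. It was also the KO_B6 library nearest the wild types for Ldha (71.0%), Hk1 (84.1%) and Pfkfb3 (56.5%). The other KO_B6 libraries held 77.4% to 77.6%, 79.6% to 80.3% and 61.9% to 64.5% there.

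**Figure D4:**
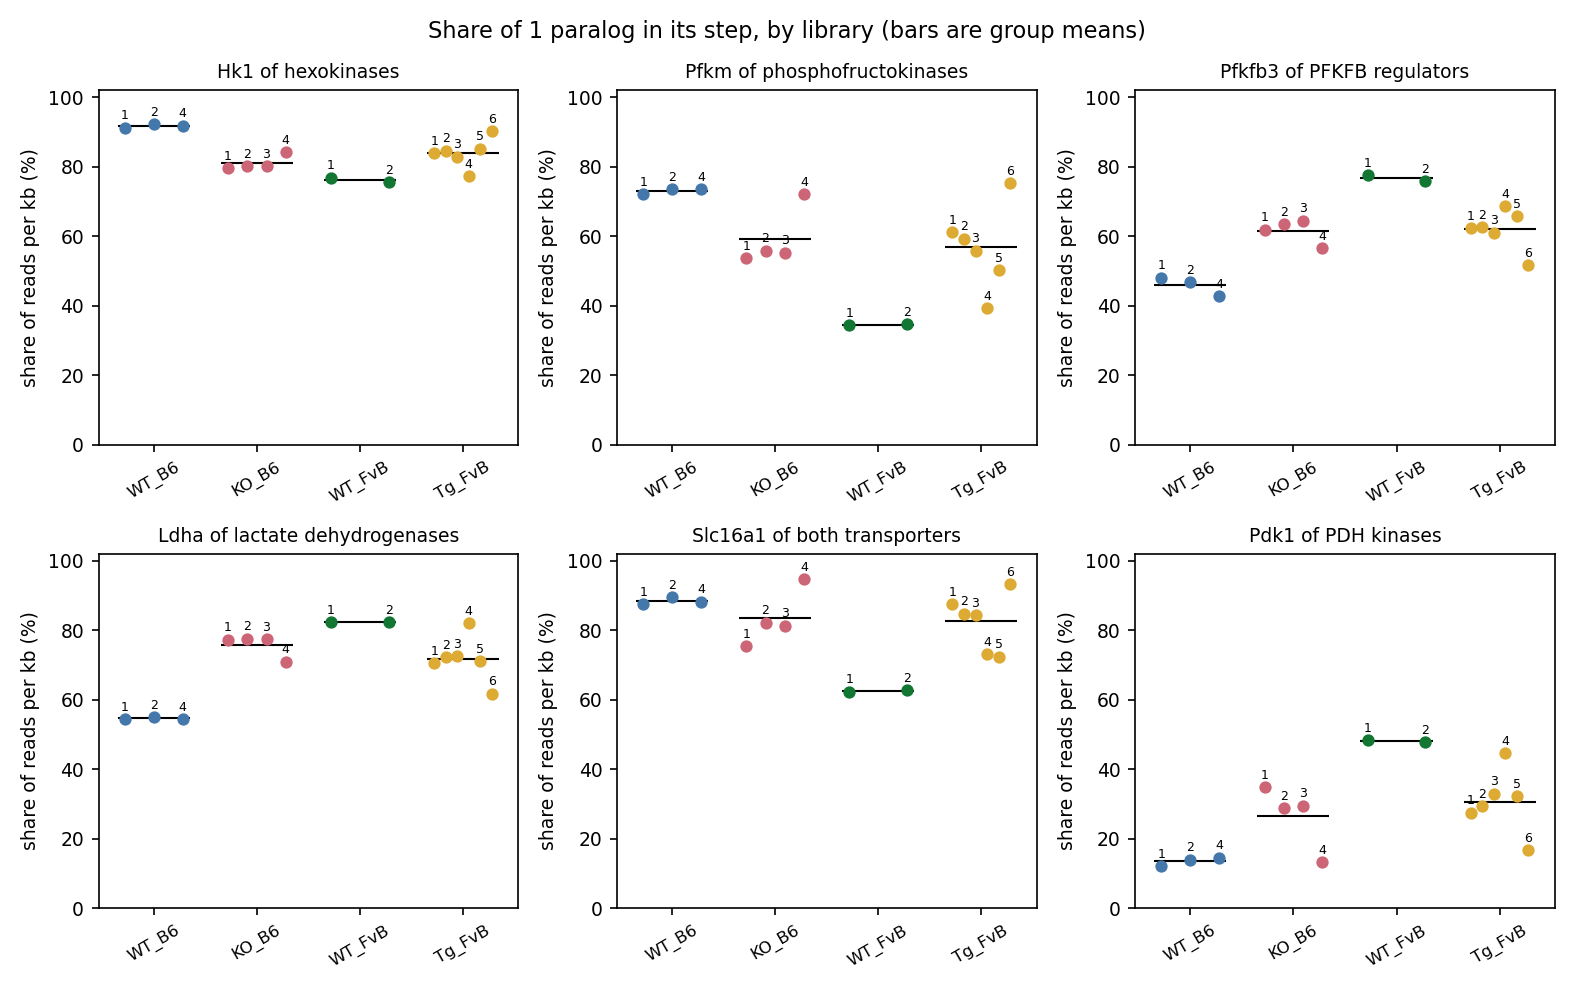
Share of the step's reads per kilobase (percent) held by Hk1, Pfkm, Pfkfb3, Ldha, Slc16a1 and Pdk1 in each library, by group, with group means. The Ldha share ran from 54.4% to 55.0% in WT_B6, 71.0% to 77.6% in KO_B6, was 82.3% in both WT_FvB libraries and ran from 61.8% to 82.0% in Tg_FvB.

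Enolase needs a caution about copies. Eno1, the ubiquitous enolase (chromosome 4, 150236708 to 150248879), has a near-identical copy listed as Eno1b, which is no member of the 36 and was looked at after the values were seen. Eno1 alone was at 237, 218 and 215 CPM in WT_B6 and 181 and 195 CPM in WT_FvB, while Eno1b was at 153, 146 and 143 CPM and at 482 and 505 CPM. How reads that match both were assigned is not given in the sources used here. Eno1 alone was called in neither comparison (log2 0.48, adjusted p = 0.0883 on loss, and -0.46, adjusted p = 0.300 on gain). Summed with Eno1b it rose on loss (log2 0.49 ± 0.17, adjusted p = 0.0280) and was not called on gain (-0.56 ± 0.17, adjusted p = 0.107). Gapdh and Aldoa have copies too, and summing them with Gapdh-ps15 or with Aldoart1 and Aldoart2 changed no call. Eno2, the neuronal enolase, was at 6.55 ± 0.567 CPM in WT_B6 (n = 3) and 6.76 ± 1.64 in KO_B6 (n = 4). It was at 79.3 ± 4.40 CPM in WT_FvB (n = 2) and 30.6 ± 16.5 in Tg_FvB (n = 6; log2 -1.39 ± 0.37, adjusted p = 0.0684).

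**Figure D5:**
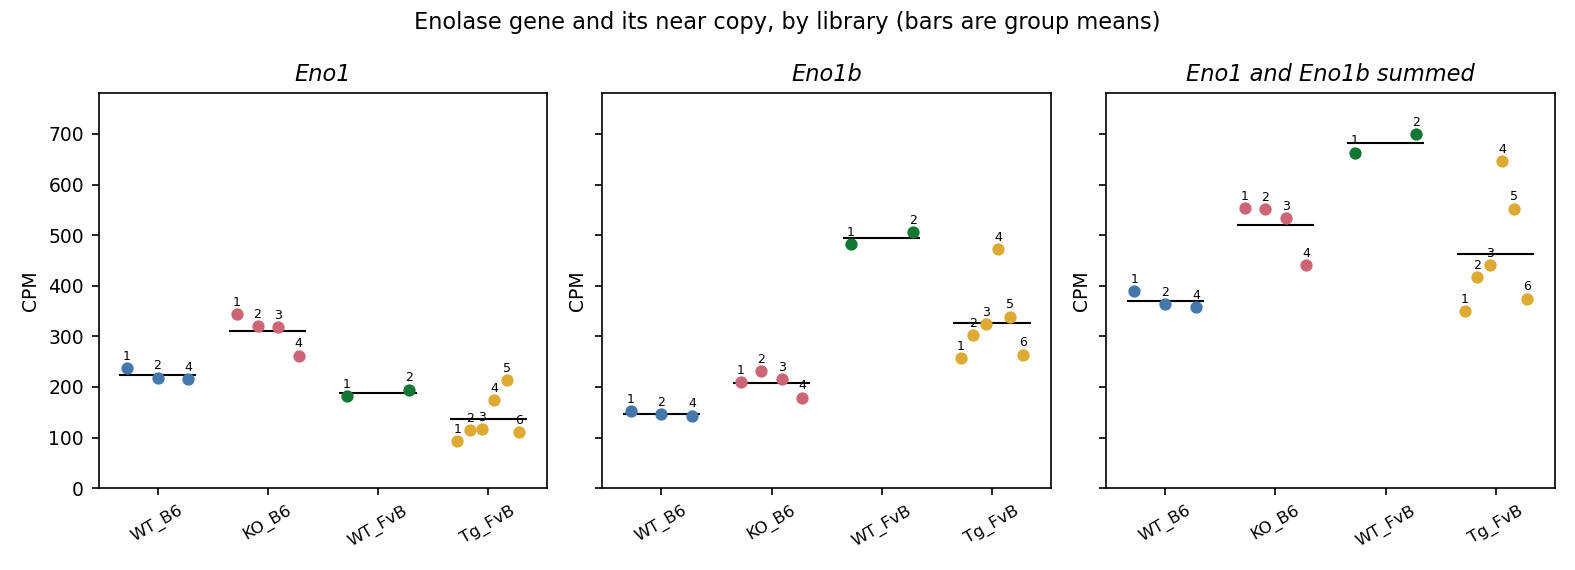
CPM of Eno1, of its near-identical copy Eno1b and of their sum in each library, by group. Eno1 lay above Eno1b in all B6 libraries and below it in all FvB libraries, while the sum ran from 358 to 389 in WT_B6 and from 663 to 700.2 in WT_FvB.

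The wild types themselves differed. This comparison uses the control libraries of both comparisons above, so only its values are set beside them. WT_B6 replicate 1 carries the litter number of both WT_FvB libraries. With the litter number as a term shared by both backgrounds, a setting added after seeing the data, edgeR kept 23 of the 28 calls described here, and all 28 kept their direction. The 5 that were not called then were Hk1, Pfkfb2, Slc16a3, Pdk3 and Pygb. WT_FvB was higher than WT_B6 for 26 of the 36 genes and lower for Pdk2 and Pygb, where 25.4% and 23.5% of all genes were called in these directions and 48.9% in either. Without overlap, 28 of the 36 genes were higher and 5 lower, where the shares of all genes were 40.1% and 38.2%, 78.3% together. The median log2 fold change of the 36 genes was 0.96 (0.02 over all genes). The largest were those of Eno2 (12.1-fold), Slc16a3 (11.1-fold) and Pfkp (9.84-fold). Slc2a1 was 5.09-fold, Hk2 5.06-fold, Gbe1 4.99-fold and Ldha 3.19-fold higher in WT_FvB. The Tg_FvB means of these genes lay between the means of WT_B6 and WT_FvB, and so did their KO_B6 means. KO_B6 and Tg_FvB were at means of 36.5 and 40.9 CPM for Slc2a1, 36.2 and 35.8 for Hk2, and 574 and 641 for Ldha. For Slc16a3 they were at 13.5 and 16.8 CPM, and for Pfkp at 30.5 and 43.8 CPM. They were further apart for Gbe1 (21.7 and 35.5 CPM) and Eno2 (6.76 and 30.6 CPM). KO_B6 and Tg_FvB differ in background as well as genotype and were not compared by a test.

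Other genes of the pathways were taken from lists, which were also chosen with earlier results of these data known. Their shares of called genes stand against the 45.8% of all genes called on loss (24.8% higher and 20.9% lower) and the 1.84% called on gain. Of 15 further glycolytic and gluconeogenic genes tested, 5 rose and 2 fell on loss (46.7%, near the background), and edgeR called 0 on gain, where 1 was higher and 1 lower at an unadjusted p under 0.05, DESeq2 called 1 as lower and the median log2 fold change was -0.07. Tigar, a fructose bisphosphatase that lowers glycolytic flux, rose 1.82-fold on loss, from 14.8 ± 0.977 CPM (n = 3) to 26.9 ± 0.842 (n = 4; adjusted p = 2.79e-05). Adpgk, the ADP-dependent glucokinase, rose 1.81-fold (adjusted p = 7.18e-05), and Pck2, the mitochondrial phosphoenolpyruvate carboxykinase, fell (log2 -0.94 ± 0.19, adjusted p = 0.00127).

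Of 13 pyruvate genes, 1 rose and 2 fell on loss (23.1%, below the background) and 1 fell on gain (7.69%). Pdk4, another pyruvate dehydrogenase kinase, fell on loss from 14.6 ± 1.18 CPM (n = 3) to 4.21 ± 1.79 (n = 4; log2 -1.81 ± 0.24, adjusted p = 5.50e-05). Bsg, basigin, the chaperone of the lactate transporters, fell on gain from 445 ± 2.49 CPM (n = 2) to 305 ± 28.3 (n = 6; log2 -0.55 ± 0.08, adjusted p = 0.00737).

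Of 22 further glycogen genes, 3 rose and 5 fell on loss (36.4%, below the background) and 2 fell on gain (9.09%). Pygm, the muscle phosphorylase, fell on loss (log2 -1.08 ± 0.35, adjusted p = 0.0205), as did Gsk3b, a kinase that inhibits glycogen synthase (log2 -0.55 ± 0.09, adjusted p = 0.000254). Pgm2, a phosphoglucomutase, fell on gain (log2 -0.48 ± 0.11, adjusted p = 0.0386). Of 9 further pentose phosphate genes, 3 rose and 1 fell on loss (44.4%, near the background) and edgeR called 0 on gain, where 2 were higher and 1 lower at an unadjusted p under 0.05, DESeq2 called 1 as higher and the median log2 fold change was -0.06. Rpia, ribose 5-phosphate isomerase, rose from 11.8 ± 1.68 CPM (n = 3) to 23.3 ± 0.832 (n = 4; adjusted p = 6.40e-05), and the ribose phosphate pyrophosphokinase genes Prps1 and Prps2 rose with log2 fold changes of 0.67 and 0.31.

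Of 15 known regulators, 4 rose and 4 fell on loss (53.3%, near the background) and 1 fell on gain (6.67%). Myc rose 2.16-fold on loss, from 60.1 ± 2.19 CPM (n = 3) to 130.0 ± 3.11 (n = 4; adjusted p = 1.79e-06). Egln1, an oxygen sensor that marks hypoxia-inducible factors for degradation and is itself a target of them, rose on loss (log2 0.54 ± 0.13, adjusted p = 0.00278) and fell on gain (-0.61 ± 0.13, adjusted p = 0.0322). Epas1, which encodes HIF-2 alpha, fell on loss (log2 -0.58 ± 0.13, adjusted p = 0.00201).

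Of 14 hypoxia-responsive genes outside glycolysis, 8 rose and 2 fell on loss (24.8% and 20.9% of all genes) and 6 fell on gain (1.16% of all genes), with median log2 fold changes of 0.83 and -1.23. Without Tg_FvB 5 and 6, 11 fell on gain. Adm, adrenomedullin, was 7.08-fold higher on loss (2.99 ± 0.665 CPM, n = 3, against 21.2 ± 2.29, n = 4; adjusted p = 7.31e-06) and fell on gain from 53.6 ± 0.894 (n = 2) to 26.6 ± 8.99 (n = 6; adjusted p = 0.0408). Vegfa, the endothelial growth factor, rose on loss from 70.3 ± 2.06 to 209 ± 101 CPM (adjusted p = 0.0149). Ddit4 and Mxi1, a pair of growth inhibitors on the same list, fell on loss (log2 -1.42 and -1.22). The sum of the 14 genes was 902 to 914 CPM in WT_B6 and 618 (replicate 4) to 1128 (replicate 1) in KO_B6, which overlap. It was 2111 to 2155 CPM in WT_FvB and 765 (replicate 6) to 1446 (replicate 4) in Tg_FvB. Oxygen and culture density were not measured, and the part of these genes' change in that of the glycolytic genes was not tested.

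Markers of other cell types also differed between genotypes. Their calls stand against 24.8% of all genes called higher and 20.9% lower on loss, and 0.681% and 1.16% on gain. The sum of 6 astrocyte markers was 1999 to 2058 CPM in WT_B6 and 581 to 762 in KO_B6, and 2139 to 2159 in WT_FvB and 1348 to 1957 in Tg_FvB. On loss 5 of the 6 fell, and on gain 3 did. Apoe, the apolipoprotein E gene and the most abundant of the 6, was at 1408 CPM in WT_B6 and 278 in KO_B6, and Gfap at 20.0 and 3.59 CPM. Of 8 oligodendrocyte lineage markers, 1 rose and 4 fell on loss and 2 rose on gain. Their sum was 3350 to 3532 CPM in WT_B6 and 2874 to 3341 in KO_B6, without overlap, and 2563 to 2578 in WT_FvB and 2303 to 3288 in Tg_FvB, with overlap. Gpr17 was at a mean of 416 CPM in WT_B6 and 136 in KO_B6, and Cnp at 397 and 147 CPM. Of the 8 neural stem cell markers, 2 rose and 4 fell on loss, and of 6 neuron markers 1 rose and 2 fell on loss and 1 rose on gain. The share of neuron markers called on loss was near the 45.8% of all genes called in either direction. In these bulk libraries fewer cells of a type and less RNA per cell cannot be told apart, and the part of these markers in the changes of the 36 genes was not tested.

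Since several members moved together, the sequence before their start sites was searched for ACGTG, the core of the element bound by hypoxia-inducible factors, on both strands, that is as ACGTG or CACGT. The palindrome CACGTG, bound by MYC and USF proteins, holds both and counts as a match. Promoter windows of 250 bases before to 50 after the start (RefSeq, GRCm38.p6) were found for 35 of the 36 genes, 51 windows in all, with none for Slc2a3. A match stood in 47.1% of the 51 windows and in 19.6% of the 32851 windows of all genes. Per gene, 20 of the 35 had a match in any window, against 21.8% of all genes. By call on loss, 9 of the 10 genes that rose, 5 of the 6 that fell and 6 of the 19 others had one. By call on gain, 6 of the 10 that fell and 14 of the 25 others had one. The windows of all genes include genes that were not tested here. They were not matched to those of the 36 for base composition or for windows per gene, so the shares are not like for like. A match is a description of the letters and not of binding.

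The 160 bases before the start were taken for the genes that rose on loss and fell on gain, and for Ppp1r3c, Pdk2, Pygb and Gbe1. The stretches of Slc2a1, Pfkfb3, Pygb and Ppp1r3c overlap an exon of the annotation and are not shown. The other 5 genes are shown, each on the strand of the gene, 5′ to 3′, with matches in capitals. Ldha, Pgk1 and Pgam1 rose on loss and fell on gain, Pdk2 fell on loss, and Gbe1 fell on gain and has no match in this stretch. The positions are chr7:46845644-46845803 (plus strand) for Ldha, chrX:106186940-106187099 (plus) for Pgk1, chr19:41911711-41911870 (plus) for Pgam1, chr11:95041372-95041531 (minus) for Pdk2 and chr16:70313789-70313948 (plus) for Gbe1. Ldha and Pdk2 each have a second start in RefSeq, and the 160 bases before it, not shown, hold 0 matches for either gene. The stretch shown for Ldha holds 5 matches, 4 of them from 2 copies of CACGTG, and no exon of the annotation overlaps any stretch shown.
Ldha: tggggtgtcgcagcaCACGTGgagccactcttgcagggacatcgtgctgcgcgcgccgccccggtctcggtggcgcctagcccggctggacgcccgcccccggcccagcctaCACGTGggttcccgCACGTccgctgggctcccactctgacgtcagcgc
Pgk1: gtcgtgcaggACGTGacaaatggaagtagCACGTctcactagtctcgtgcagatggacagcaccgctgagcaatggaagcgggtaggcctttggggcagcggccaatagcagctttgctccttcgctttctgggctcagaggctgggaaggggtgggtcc
Pgam1: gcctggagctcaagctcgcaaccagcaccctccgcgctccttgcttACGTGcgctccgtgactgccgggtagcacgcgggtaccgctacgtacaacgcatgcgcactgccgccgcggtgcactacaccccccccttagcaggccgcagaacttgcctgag
Pdk2: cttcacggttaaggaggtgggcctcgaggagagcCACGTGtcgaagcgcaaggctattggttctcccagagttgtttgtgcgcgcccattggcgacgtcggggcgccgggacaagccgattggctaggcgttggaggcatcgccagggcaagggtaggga
Gbe1: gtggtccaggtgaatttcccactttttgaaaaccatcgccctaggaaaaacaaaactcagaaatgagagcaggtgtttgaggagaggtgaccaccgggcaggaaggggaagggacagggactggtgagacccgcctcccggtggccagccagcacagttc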

How the data were processed

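RNA of 15 neurosphere libraries was sequenced as 66 bp paired-end reads from TruSeq RNA v2 libraries, per the labels. The deposited files hold raw counts per gene, made with bcl2fastq and featureCounts on mm10, per the submitters' processing notes. Neither versions nor an aligner, annotation or strand setting could be taken from the sources used here, and overlapping genes and near-identical copies are uncertain. The deposited gene length was used only for values per kilobase. Entries without a gene name, 917 per file, held 0.450% to 0.545% of the counts and were left out. Samples were grouped by genotype and background. Total counts per library were 12336303 to 62819028.

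Differences were tested with edgeR 4.0.16 in R 4.3.3, by its quasi-likelihood F-test with TMM scaling, filterByExpr at a minimum count of 10 (15261 genes tested, 11002 removed), all 15 libraries in 1 model, 1 coefficient per group, no covariate and Benjamini-Hochberg adjustment over all genes tested, with a call under 0.05. CPM values were scaled by the TMM factors. Standard errors were derived from the F statistic. The fit was tested on simulated data. Paralog shares were compared by exact 2-sided permutation tests. Alternatives were RLE scaling, DESeq2 1.42.0, no filter, a replicate block, a litter term, near-identical libraries summed, only the compared groups, and leaving libraries out. Summing near copies of genes, the within-litter ratios, and the block and litter terms shared across backgrounds for the wild types were added after seeing the data.

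The 36 genes and the lists were chosen with earlier results of these data known. All 36 could be named. Of the other lists, called genes averaging 5 CPM or more could be named, at most the 3 largest rises and 3 largest falls per list and comparison. Libraries with the same replicate number did not deviate together (r = -0.0101, 0.0150 and -0.0238 in the B6 groups, 0.163 and -0.0292 in the FvB groups), so the numbers were not used as pairs. Gene positions and promoter sequences are from RefSeq on GRCm38.p6, the assembly of mm10. Not every regional marker that was examined is reported here.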

Additional observations from a re-analysis of the deposited data

Results flagged for a closer look

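Single libraries stood far from the others of their group for 6 values, which chance does in about 1 of 20 groups. All 36 genes were examined in KO_B6 and in Tg_FvB, so several such values would arise by chance. Values of different genes in 1 library are also not independent. KO_B6 replicate 4 was the low library for Hk2, at 27.9 CPM, and for Pfkfb3, at 43.7 CPM. Tg_FvB replicate 4 was the high library for Aldoa, at 807 CPM, for Ldha, at 909 CPM, and for Pdk3, at 34.0 CPM. KO_B6 replicate 1 was the high library for Gys1, at 105.0 CPM. Groups of 2 and 3 libraries were not examined in this way.

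The effects of loss and gain of Kat6b, each against its own wild type, differed for 26 genes by the test of the difference itself (edgeR, adjusted p under 0.05). As the log2 change on loss minus that on gain, the difference was 2.20 for Slc2a1 and 1.95 for Slc2a3 among the glucose transporters, and 2.38 for Hk2. It was 0.87 for Gpi1, 1.66 for Pfkl, 2.80 for Pfkp and 1.91 for Pfkfb3. In the lower part of glycolysis it was 0.76 for Aldoa, 0.64 for Tpi1, 0.73 for Gapdh, 1.00 for Pgk1, 0.84 for Pgam1, 0.94 for Eno1 and 0.93 for Pkm. For lactate handling it was 1.51 for Ldha, -0.72 for Ldhb, 1.14 for Slc16a1 and 3.19 for Slc16a3. Among the pyruvate genes it was 1.86 for Pdk1, -1.19 for Pdk2, 0.55 for Pdk3 and -0.39 for Pdha1. It was 0.42 for Gys1, 1.61 for Gbe1 and -1.71 for Pygb among the glycogen genes, and 0.39 for Pgd. Background and direction of the Kat6b change differ together between these 2 effects and cannot be told apart.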

How the results depend on the processing

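In edgeR and DESeq2, every one of the 16 calls on loss, the 11 on gain, the 26 on the difference and the 28 between wild types kept its direction under each alternative run. Summing near-identical libraries ended all of them, with 0 of the 36 genes called in any comparison and 5, 0, 0 and 0 of all genes (6982, 281, 5696 and 7456 from single libraries). Genes called lower on gain numbered 11, and 18 in DESeq2 (722 of all genes), 0 with litter as a term (10 of all genes), 1 with only the compared groups in the model (10 of all genes) and 16 without Tg_FvB 5 and 6 (638 of all genes). With the replicate block, 23 were lower and 1 higher on gain (1577 of all genes), and 15 higher and 6 lower on loss. The litter term left 2862 of all genes for the difference. With only the 2 wild types in the model 5 genes were lower. Leaving out 1 library at a time gave 0 to 24 lower and 0 to 1 higher on gain, 2 to 1763 of all genes on gain, 3598 to 6761 for the difference, and 1 to 2 lower between wild types. For the wild types, terms within each background leave no contrast, so the numbers were also shared across backgrounds (added after seeing the data): the litter term gave 22 higher and 1 lower (3904 of all genes), and the replicate block 26 and 3.

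Signs changed only for values that were not called, except Eno1 between wild types, which went from -0.25 to 0.88 with its copy Eno1b added. Summed libraries gave log2 -0.0204 for Taldo1 on loss, and 0.0216 for Pfkfb4 and 0.0020 for Pgd on gain. Pfkfb2 on gain was at 0.0484 with the replicate block, 0.0484 with the litter term and 0.0506 without Tg_FvB 5 and 6, which also gave 0.0213 for Pfkfb4 and -0.0715 for Pdk2. The difference for Pfkfb2 was -0.0149 with the litter term and -0.0235 without Tg_FvB 5 and 6. The Slc2a1 share on gain was -0.397 percentage points with near-identical libraries averaged and -1.17 to 1.56 with 1 library left out. Leaving out 1 library gave ranges on loss of -0.0042 to 0.0566 for Pfkfb2, -0.0109 to 0.17 for Tpi1, -0.0729 to 0.14 for Eno2, -0.0777 to 0.16 for Pdk3 and -0.0209 to 0.0543 for Taldo1. On gain they were -0.10 to 0.0415 for Pfkfb2, -0.0807 to 0.0570 for Pfkfb4, -0.0500 to 0.0775 for Pdk2 and -0.0459 to 0.0038 for Pgd. The range was -0.0131 to 0.13 for the difference of Pfkfb2, and -0.31 to 0.0650 for Pygl and -0.0437 to 0.0178 for Taldo1 between wild types. The causes were not tested.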
